A study of Mus musculus with 4 samples.

Results

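The interferon response and the presentation of peptides on MHC class I are described here through 9 genes: *B2m*, *H2-K1*, *H2-D1* and *Tap1* of the class I pathway, *Irf9* and *Irf7* as transcription factors, and *Ifit3*, *Isg15* and *Bst2* as effectors. They were chosen by name, with earlier results of these data known. All were found by their NCBI Gene ID among the 24532 genes of the deposited tables, and each had 1 entry in every table. The values come from bulk RNA-seq of 4 adult male mice with 1 library per mouse, 2 wild-type (WT) mice and 2 *Kdm3b*+/- mice. The *Kdm3b*+/- mice carry a pGT0lxf gene-trap vector in 1 copy of *Kdm3b*, which encodes a demethylase of histone H3 lysine 9, and the line came from 1 targeted embryonic stem cell line and was backcrossed to C57Bl/6N and later crossed to C57Bl/6J. The WT mice were littermates, and none of the mice is described as treated. The labels name the tissue as cerebellum, and by the study's methods it was granule-cell-enriched (GCE) tissue cut by hand from slices of the cerebellar vermis, so it holds other cell types as well. The comparison asks which transcripts differ in GCE tissue when 1 copy of *Kdm3b* is disrupted.

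Cells that sense viral nucleic acid secrete type I interferon, which binds a receptor on the same and on neighbouring cells. The receptor signals through a complex that holds STAT2 and IRF9 and binds interferon-stimulated response elements (ISREs) and switches on interferon-stimulated genes, IRF7 among them, and IRF7 in turn drives more interferon. MHC class I molecules are interferon-responsive as well: a heavy chain pairs with beta-2 microglobulin and displays a peptide, pumped into the endoplasmic reticulum by the TAP transporter, to CD8 T cells. In healthy brain the pathway runs at a low tonic level, and microglia and endothelial cells are known as its strong responders.

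The 4 of the 9 promoters that hold the letters of an ISRE are shown, since an ISRE is the element through which IRF9 acts. All 9 genes had a RefSeq promoter window in GRCm38.p6, from 250 bases before the annotated start to 50 bases after it. GAAANNGAAA, searched on both strands, was found in 1131 of 32851 such windows of all genes (3.44%) and in windows of *B2m*, *Ifit3*, *Isg15* and *Bst2*. It was not found in the windows of *H2-K1*, *H2-D1*, *Tap1*, *Irf9* and *Irf7*, which says only that these letters are not there. The stretches lie at chr2:122147528-122147577 on the + strand (*B2m*), chr19:34583353-34583436 on the + strand (*Ifit3*), chr4:156200855-156200916 on the - strand (*Isg15*) and chr8:71537567-71537622 on the - strand (*Bst2*). They are written 5′ to 3′ on the gene's strand, with the matches in capitals.
B2m: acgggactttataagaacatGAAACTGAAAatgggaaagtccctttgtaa
Ifit3: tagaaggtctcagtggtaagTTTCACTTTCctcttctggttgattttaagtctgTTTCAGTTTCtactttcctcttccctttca
Isg15: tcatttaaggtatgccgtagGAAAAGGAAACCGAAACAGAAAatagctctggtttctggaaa
Bst2: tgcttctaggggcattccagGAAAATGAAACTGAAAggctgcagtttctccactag
The single *B2m* match began 139 bases before the start. *Isg15* held 3 overlapping matches and *Bst2* 2 overlapping ones, which are shown as 1 run of capitals. *Ifit3* held 2 separate matches on the other strand, 156 and 122 bases before the start, so the capitals read as the reverse complement. The neighbouring gene *Ifit3b* holds the same 84 bases with 0 mismatches, at chr19:34607749-34607832. A match of letters is a description of the sequence and does not show that a factor binds there.

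Sequencing depth was estimated as 4.92 and 5.74 gigabases of aligned sequence in WT mice, against 5.69 and 6.69 gigabases in *Kdm3b*+/- mice, and between 17572 and 17991 genes had a TPM above 0. TPM is a transcript level per length, scaled to the same total in every library, so levels can be set side by side between genes. Log2(TPM + 1) was compared between the groups with limma for the 13652 genes whose mean TPM reached 1, with Benjamini-Hochberg adjustment. Genes were called differentially expressed (DEX) at an adjusted p below 0.05 if they also differed more than 1.2-fold. A log2 fold change is *Kdm3b*+/- over WT on the log2(TPM + 1) scale, which understates the change of genes with low TPM, and the median over all tested genes was -0.07. The p-values rest on the spread between these mice, which limma moderates with the trend of spread over all tested genes. Each gene thus has 9.09 degrees of freedom, in part from other genes. With 2 against 2 an exact two-sided permutation test cannot go below 0.333. The level of *Kdm3b* itself was 9.10 and 11 TPM in WT mice, against 8.30 and 7.90 in *Kdm3b*+/- mice, with a log2 fold change of -0.27 (SE 0.17, adjusted p = 0.424 by limma). It did not pass the test, and a TPM over the whole gene is only a partial check of an allele trapped in an intron, whose exons before the trap are still transcribed. The summed TPM of 10 granule cell markers ranged from 3834 to 4557 over the mice with 0 of 10 called, while summed oligodendrocyte markers reached 17963, so the tissue was a mixture. WT mouse 1 stood apart in 10 Purkinje cell markers, with a summed TPM of 1631 beside 723 to 879 in the other mice. In bulk tissue, fewer cells of a type and less RNA per cell cannot be told apart.

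None of the 9 genes was called DEX by limma, against 0.461% of all tested genes, 0.344% lower and 0.117% higher in *Kdm3b*+/- mice. All 9 passed the filter on low TPM. The 3 genes at an unadjusted p under 0.05 were *Irf7*, *Irf9* and *Ifit3*, each with lower TPM in the *Kdm3b*+/- mice, where 11.5% of all tested genes had such a p in that direction, 5.47% in the other and 17.0% in either. With *H2-D1*, 4 of the 9 (44.4%) had both *Kdm3b*+/- mice below both WT mice, against 32.0% of all tested genes, and 0 of 9 lay entirely above, against 19.2%. In either direction 51.3% of all genes did not overlap. The median log2 fold change of the 9 was -0.18 beside -0.07 over all genes. The other 5 genes overlapped between the groups.

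**Figure D1:**
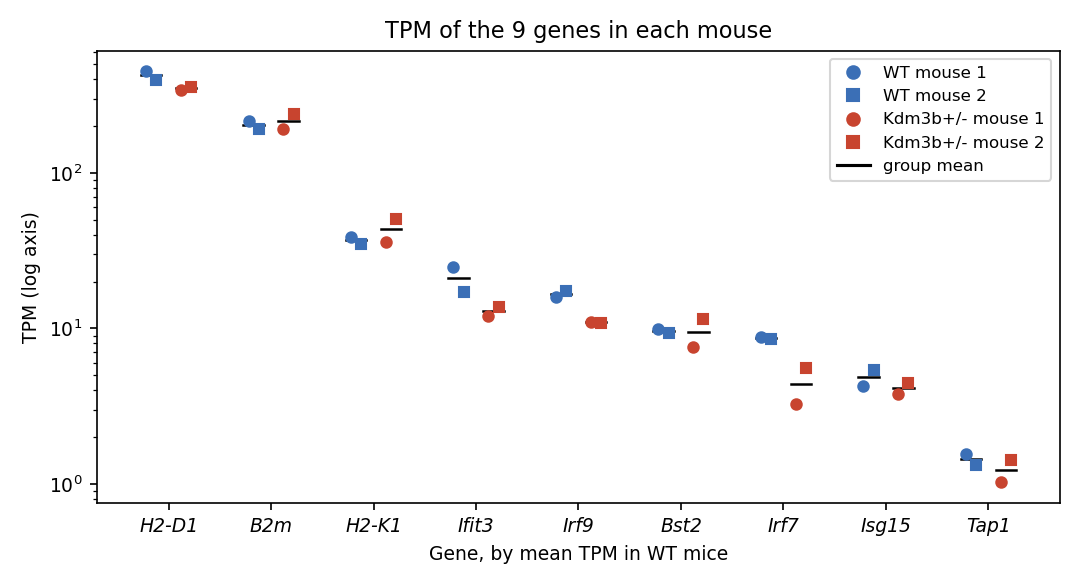
TPM of the 9 genes in each mouse on a log axis, ordered by the mean in WT mice, with blue points for WT mice, red points for Kdm3b+/- mice, circles and squares for mouse 1 and mouse 2 of each group and bars for group means. The 2 groups are apart for H2-D1, Ifit3, Irf9 and Irf7 and overlap for the other 5 genes.

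The 9 genes spanned a wide range of levels in the same order in both groups: *H2-D1*, *B2m*, *H2-K1*, *Ifit3*, *Irf9*, *Bst2*, *Irf7*, *Isg15* and *Tap1*. Among neighbours in this order, the WT mice overlapped only for *Ifit3* and *Irf9*. The *Kdm3b*+/- mice overlapped for *Irf9* and *Bst2* and for *Irf7* and *Isg15*. The class I genes *H2-D1* and *B2m* thus stood far above the rest, while *Tap1*, which supplies their peptides, stood between 1.02 and 1.55 TPM in every mouse.

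*Irf9*, on chromosome 14 (55603985-55610030, + strand), encodes the DNA-binding subunit of the complex with STAT2. Its TPM was 15.9 and 17.3 in WT mice, against 11 and 10.9 in *Kdm3b*+/- mice. Both *Kdm3b*+/- mice lay below both WT mice and close to each other. The mean was 16.6 ± 0.994 (SD, n = 2) against 10.9 ± 0.0353 (SD, n = 2), a ratio of 0.658. The log2 fold change was -0.56 (SE 0.15, 95% interval -0.91 to -0.22), and the adjusted p of 0.158 missed the threshold. The intervals here and in what follows are those of limma and are not adjusted for the number of genes.

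*Irf7*, on chromosome 7 (141263183-141266424, - strand), encodes the factor that amplifies interferon production. Its TPM was 8.77 and 8.58 in WT mice, against 3.24 and 5.57 in *Kdm3b*+/- mice. The groups did not overlap, and the spread lay in the *Kdm3b*+/- mice, of which mouse 1 was the lower. The mean was 8.68 ± 0.132 (SD, n = 2) against 4.40 ± 1.64 (SD, n = 2), a ratio of 0.508. The log2 fold change was -0.87 (SE 0.22, 95% interval -1.37 to -0.38, adjusted p = 0.142), the lowest value among the 9 genes. Without *Kdm3b*+/- mouse 2 the log2 fold change was -1.19 with an adjusted p of 0.0117, and *Irf7* was called in that fit, in which 1.38% of all tested genes were called, 1.07% lower and 0.308% higher. Without *Kdm3b*+/- mouse 1 it was -0.56 with an adjusted p of 0.628. The coverage, or mean read depth per exonic base, was 19.0 and 20.5 in WT mice, against 8.31 and 16.5 in *Kdm3b*+/- mice. Coverage is not scaled for sequencing depth, which was highest in *Kdm3b*+/- mouse 2 at 6.69 gigabases, so TPM is the measure to set between mice.

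*Ifit3*, on chromosome 19 (34583529-34588982, + strand), belongs to the family of IFIT proteins, which bind foreign RNA and adaptors of antiviral signalling. Its TPM was 24.9 and 17.1 in WT mice, against 12.1 and 13.7 in *Kdm3b*+/- mice. The groups did not overlap, and here the spread lay in the WT mice, of which mouse 1 was the higher. The mean was 21.0 ± 5.50 (SD, n = 2) against 12.9 ± 1.12 (SD, n = 2), a ratio of 0.612, and the log2 fold change was -0.65 (SE 0.19, 95% interval -1.09 to -0.21, adjusted p = 0.180). *Ifit3* shares much of its sequence with *Ifit3b*: 51.2% of the 50-base windows of its longest GENCODE transcript were found unchanged in *Ifit3b*, so the split of reads between both genes is uncertain. Summed over both genes, TPM was 41.1 and 30.5 in WT mice, against 20.1 and 20.9 in *Kdm3b*+/- mice. The sum kept the groups apart, with a log2 fold change of -0.76 (SE 0.17, 95% interval -1.15 to -0.37, adjusted p = 0.115), and *Ifit3b* alone was 16.2 and 13.3 against 8.0 and 7.23 TPM.

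*Isg15*, on chromosome 4 (156199424-156200818, - strand), encodes a ubiquitin-like protein that is attached to other proteins after interferon. Its TPM was 4.25 and 5.43 in WT mice, against 3.79 and 4.49 in *Kdm3b*+/- mice. The groups overlapped, since *Kdm3b*+/- mouse 2 lay above WT mouse 1. The mean was 4.84 ± 0.830 (SD, n = 2) against 4.14 ± 0.491 (SD, n = 2), and the log2 fold change was -0.18 (SE 0.19, 95% interval -0.60 to 0.24, adjusted p = 0.647). The interval holds both no difference and a decrease as large as that of *Irf9*.

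*Bst2*, on chromosome 8 (71534262-71537437, - strand), encodes tetherin, which holds budding virus particles at the cell surface. Its TPM was 9.90 and 9.31 in WT mice, against 7.61 and 11.4 in *Kdm3b*+/- mice. The *Kdm3b*+/- mice stood on either side of the WT mice. The log2 fold change was -0.04 (SE 0.20, 95% interval -0.49 to 0.41, adjusted p = 0.943), from 9.61 ± 0.420 (SD, n = 2) to 9.51 ± 2.69 (SD, n = 2). This sign turned with the scaling, since the log2 fold change was 0.030 with median-ratio scaling and 0.071 after quantile normalization. After a correction for transcript length and GC content it was -0.295. *Isg15*, *Bst2*, *Ifit3* and *B2m* carry ISRE letters in the promoter stretches shown above. *Irf7* and *Irf9* do not, nor do *H2-K1*, *H2-D1* and *Tap1*. A relation of these letters to the fold changes was not tested.

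**Figure D2:**
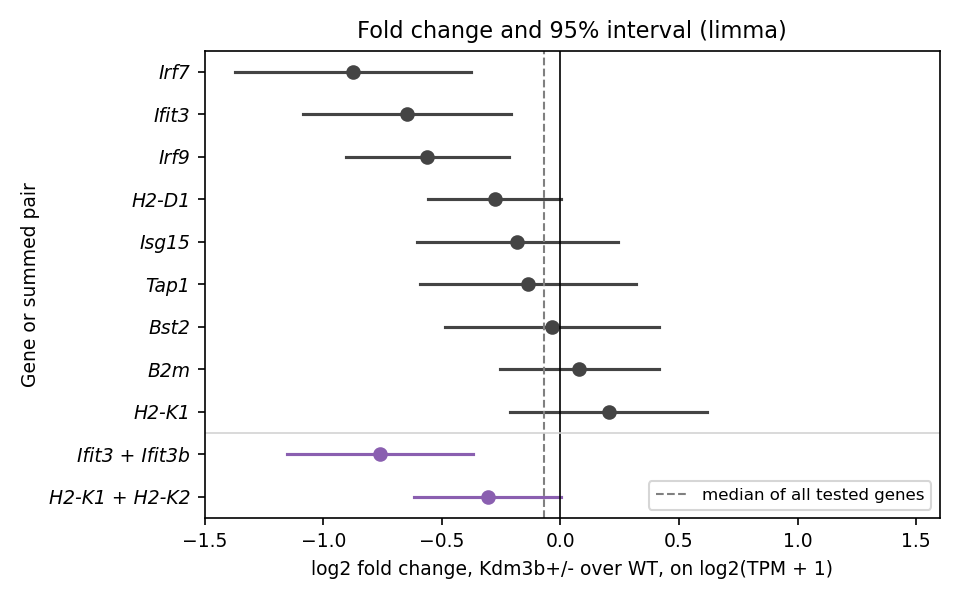
Log2 fold change, Kdm3b+/- over WT, of the 9 genes (grey) and of 2 summed pairs (purple), with bars for the 95% interval of limma and a dashed line at the median of all tested genes, -0.07. The intervals of Irf7, Ifit3 and Irf9 lie below 0, those of the other 6 genes include 0, and no adjusted p passed the threshold.

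*H2-D1*, on chromosome 17 (35263094-35267497, + strand), encodes a classical class I heavy chain and was the most abundant of the 9 transcripts. Its TPM was 451 and 399 in WT mice, against 342 and 358 in *Kdm3b*+/- mice. The groups did not overlap. The mean was 425 ± 36.8 (SD, n = 2) against 349.8 ± 11.2 (SD, n = 2), a ratio of 0.823, and the log2 fold change was -0.28 (SE 0.12, 95% interval -0.56 to 0.0033, adjusted p = 0.298). Of its 50-base windows, 14.3% were found in some other gene, 7.4% in *H2-Q1* and 5.31% in *H2-K1*, so part of its reads may be shared.

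*B2m*, on chromosome 2 (122147687-122153082, + strand), encodes the light chain that every class I molecule needs. Its TPM was 216 and 192 in WT mice, against 192 and 241 in *Kdm3b*+/- mice. The groups overlapped, and *Kdm3b*+/- mouse 2 was the highest. The log2 fold change was 0.08 (SE 0.15, 95% interval -0.26 to 0.41, adjusted p = 0.813), from 204 ± 17.5 (SD, n = 2) to 216 ± 34.2 (SD, n = 2). Once transcript length and GC content were corrected for, it was -0.18, so no direction is given for *B2m*.

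*H2-K1*, on chromosome 17 (33996012-34000347, - strand), encodes the other classical heavy chain of these mice. Its TPM was 38.9 and 35.0 in WT mice, against 35.7 and 50.8 in *Kdm3b*+/- mice. Only *Kdm3b*+/- mouse 2 lay above the WT mice. The log2 fold change was 0.20 (SE 0.18, 95% interval -0.21 to 0.62, adjusted p = 0.595), and it was -0.045 without *Kdm3b*+/- mouse 2. Its neighbour *H2-K2*, listed as a separate gene, was 88.6 and 94.4 TPM in WT mice, against 60.2 and 61.1 TPM in *Kdm3b*+/- mice (log2 fold change -0.59, SE 0.13, adjusted p = 0.114). The sum of both genes was 128 and 129 TPM in WT mice, against 95.9 and 112 TPM in *Kdm3b*+/- mice, with a log2 fold change of -0.31 (SE 0.14, 95% interval -0.62 to 0.0016, adjusted p = 0.296). The share of the sum that was listed under *H2-K1* was 30.5% and 27.1% in WT mice, against 37.3% and 45.4% in the *Kdm3b*+/- mice. Most of the sum is *H2-K2*, and only 0.822% of the 50-base windows of *H2-K1* were found in *H2-K2*, so the sum describes the pair and does not measure *H2-K1* again.

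**Figure D3:**
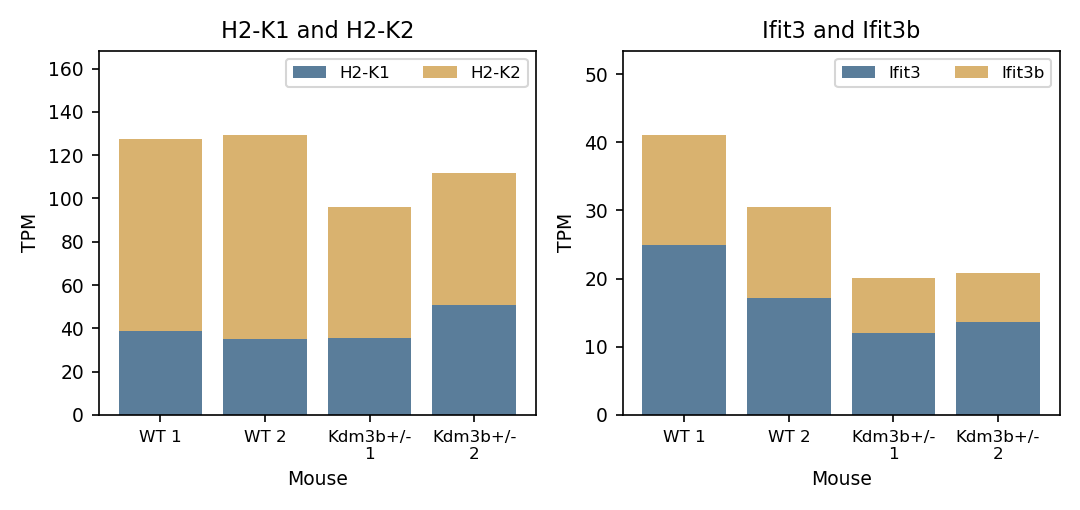
TPM of H2-K1 (blue) stacked with H2-K2 (yellow) on the left and of Ifit3 (blue) stacked with Ifit3b (yellow) on the right, for each of the 4 mice, with both axes starting at 0. The blue part of the left bars is highest in Kdm3b+/- mouse 2 while the whole bars are lower in both Kdm3b+/- mice, and on the right both parts are lower in both Kdm3b+/- mice.

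*Tap1*, on chromosome 17 (34187556-34197225, + strand), encodes 1 of the subunits of the peptide transporter. Its TPM was 1.55 and 1.33 in WT mice, against 1.02 and 1.43 in *Kdm3b*+/- mice, at a coverage of 2.71 to 4.36. The groups overlapped at this low level. The log2 fold change was -0.14 (SE 0.20, 95% interval -0.59 to 0.32, adjusted p = 0.759), and it was 0.10 after the correction for transcript length and GC content. Its partner *Tap2* stood higher, at 16 and 23.5 TPM in WT mice, against 12.6 and 15.8 TPM in *Kdm3b*+/- mice (log2 fold change -0.43, adjusted p = 0.321).

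The ligands that start the pathway were at or near 0 in this tissue. Of 21 genes for type I, II and III interferons, 17 were listed at 0 in all 4 mice, and the highest value of any was 0.272 TPM, so none was tested. Of 26 receptor and signalling genes, 22 were tested and 0 were called by limma. Of these, 2 had lower and 0 had higher TPM at an unadjusted p under 0.05, beside 11.5% and 5.47% of all genes. Entirely below WT lay 9 of 22 (40.9%), beside 32.0% of all genes, and entirely above 2 (9.09%), beside 19.2%. The median log2 fold change was -0.16. *Usp18*, which removes ISG15 from proteins and dampens the receptor, was 9.10 and 9.17 TPM in WT mice, against 4.01 and 5.29 TPM in *Kdm3b*+/- mice, close to the values of *Irf7* (log2 fold change -0.85, SE 0.18, adjusted p = 0.103). *Stat2*, which encodes a partner of IRF9, was lower in both *Kdm3b*+/- mice without passing the test, at 52.2 and 64.3 against 45.7 and 45.9 TPM (adjusted p = 0.304). Above WT lay *Socs1*, a feedback inhibitor of the receptor, with a log2 fold change of 0.28, and the shared receptor chain *Il10rb* with 0.17. The most abundant genes of the list, *Pias1* (-0.14) and *Irf2bp1* (-0.18), overlapped between the groups.

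Nucleic acid sensors and their adaptors, which act upstream of interferon, gave 0 calls among 14 tested of 20 listed. At an unadjusted p under 0.05, 1 was higher and 1 was lower, beside 5.47% and 11.5% of all genes. Of the 14, 7 (50%) lay entirely below WT, beside 32.0% of all genes, and 2 (14.3%) entirely above, beside 19.2%. *Ddx58*, which encodes the RNA sensor RIG-I, was 1.62 and 2.15 TPM in WT mice, against 0.834 and 0.997 TPM in *Kdm3b*+/- mice (log2 fold change -0.59, adjusted p = 0.218), and its relative *Dhx58* had a log2 fold change of -0.44. The subunits of ribonuclease H2, which removes RNA from DNA hybrids, did not move as 1. *Rnaseh2c* was 61.1 and 61.5 TPM in WT mice, against 97.6 and 82.5 TPM in *Kdm3b*+/- mice (log2 fold change 0.54, adjusted p = 0.152), *Rnaseh2b* had a log2 fold change of 0.31, and *Rnaseh2a*, as abundant, lay below WT at -0.15.

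Interferon-stimulated genes outside the 9 showed values on both sides. Of 76 listed genes 40 were tested, 0 were called by limma, and at an unadjusted p under 0.05 there were 11 lower and 3 higher, beside 11.5% and 5.47% of all genes. Of the 40, 20 (50%) lay entirely below WT, beside 32.0% of all genes, and 5 (12.5%) entirely above, beside 19.2%, with a median log2 fold change of -0.18 and a range from -0.95 to 0.79. The lowest was *Ifit1*, another IFIT gene, with 8.92 and 10.4 TPM in WT mice, against 4.37 and 4.66 TPM in *Kdm3b*+/- mice (log2 fold change -0.95, SE 0.17, adjusted p = 0.0583). Next to it was *Lgals3bp*, a secreted glycoprotein, with 21.2 and 20.4 against 8.98 and 12.1 TPM (log2 fold change -0.93, SE 0.18, adjusted p = 0.0740). In both, as in *Ifit3* and *Irf7*, each *Kdm3b*+/- mouse lay below each WT mouse. The opposite was seen for *Eif2ak2*, which encodes the kinase PKR, at 0.667 and 0.298 against 1.38 and 1.72 TPM (log2 fold change 0.79, adjusted p = 0.160), and for *Ifitm1*, a membrane protein that hinders virus entry, at 2.88 and 3.68 against 6.51 and 5.71 TPM (log2 fold change 0.74, adjusted p = 0.141). The study, which used DESeq2, named *Eif2ak2* among its upregulated DEX genes, whereas limma on TPM did not call it here. The genes of the list with the highest TPM, *Ifitm10* (-0.10) and the endothelial gene *Ly6c1* (0.03), overlapped. The coverage of *Ifitm10*, 112 to 132, was below that of *Ly6c1*, 183 to 256, so the first place of *Ifitm10* by TPM is uncertain.

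The interferon-inducible GTPases held the only DEX genes among the interferon and MHC lists. *Gbp6* and *Gbp10*, guanylate-binding proteins that lie close together on chromosome 5, fell in the *Kdm3b*+/- mice, 2 of 13 tested genes of 18 listed, beside 0.344% of all tested genes called lower. *Gbp6* (105270702-105293699, - strand) was 6.50 and 9.42 TPM in WT mice, against 2.23 and 2.44 TPM in *Kdm3b*+/- mice, with a log2 fold change of -1.41 (SE 0.20, adjusted p = 0.0269 by limma). *Gbp10* (105215699-105239533, - strand) was 3.49 and 3.80 TPM in WT mice, against 0.847 and 0.856 TPM in *Kdm3b*+/- mice, with a log2 fold change of -1.33 (SE 0.19, adjusted p = 0.0239 by limma). The entries are not independent, since 43.8% of the 50-base windows of *Gbp6* were found in *Gbp10* and 70.6% of those of *Gbp10* in *Gbp6*. Still more, 51.5% and 79.2%, were found in *Gm43302* of the GENCODE annotation. Neither gene was called without WT mouse 1 or without WT mouse 2. *Irgm1* (-0.48, adjusted p = 0.261) and *Igtp* (-0.43, adjusted p = 0.305), the most abundant GTPases of the list, lay below WT without passing the test. In all, 7 of 13 (53.8%) lay entirely below WT, beside 32.0% of all genes, and 0 above, beside 19.2%, with a median of -0.22.

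The remaining class I genes gave 0 calls among 11 tested of 31 listed, with a median of -0.20. Of the 11, 3 (27.3%) lay entirely below WT, beside 32.0% of all genes, and 2 (18.2%) entirely above, beside 19.2%. *Fcgrt*, the heavy chain of the neonatal Fc receptor, which also pairs with beta-2 microglobulin, was 85.7 and 90.6 TPM in WT mice, against 71.9 and 75.9 TPM in *Kdm3b*+/- mice (log2 fold change -0.25, adjusted p = 0.362). *H2-T22* was close to level (0.07), and *H2-Q7* was 0.941 and 0.903 against 3.41 and 1.06 TPM, a difference that rests on *Kdm3b*+/- mouse 1. *H2-Q4* was at most 0.285 TPM, and *H2-Q6* was listed at 0 in all mice. Reads of these paralogs cannot be fully separated.

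Peptide processing and loading gave 0 calls among 18 tested of 19 listed, with a median of -0.07, the same as over all genes. The chaperones *Pdia3* (log2 fold change 0.23) and *Calr* (0.10) were the most abundant, and the proteasome activator *Psme2* had a value of 0.22. *Thop1*, a peptidase that destroys peptides, was lower at -0.38 (adjusted p = 0.285). The immunoproteasome subunits *Psmb8* (0.23, adjusted p = 0.546) and *Psmb9* (-0.18, adjusted p = 0.705) overlapped between the groups and had opposite signs. *Nlrc5*, the transactivator of class I genes, was 0.144 and 0.140 TPM in WT mice, against 0.0659 and 0.0530 TPM in *Kdm3b*+/- mice, too low to be tested.

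MHC class II, which is carried by antigen-presenting cells, gave 0 calls among 8 tested of 13 listed, with a median of 0.03. *H2-Aa* was 1.86 and 2.20 TPM in WT mice, against 3.81 and 2.64 TPM in *Kdm3b*+/- mice (log2 fold change 0.47, adjusted p = 0.292), and *H2-DMb1* had a log2 fold change of -0.09. The most abundant, the protease *Ctss* (0.03) and *H2-DMa* (0.04), overlapped.

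**Figure D4:**
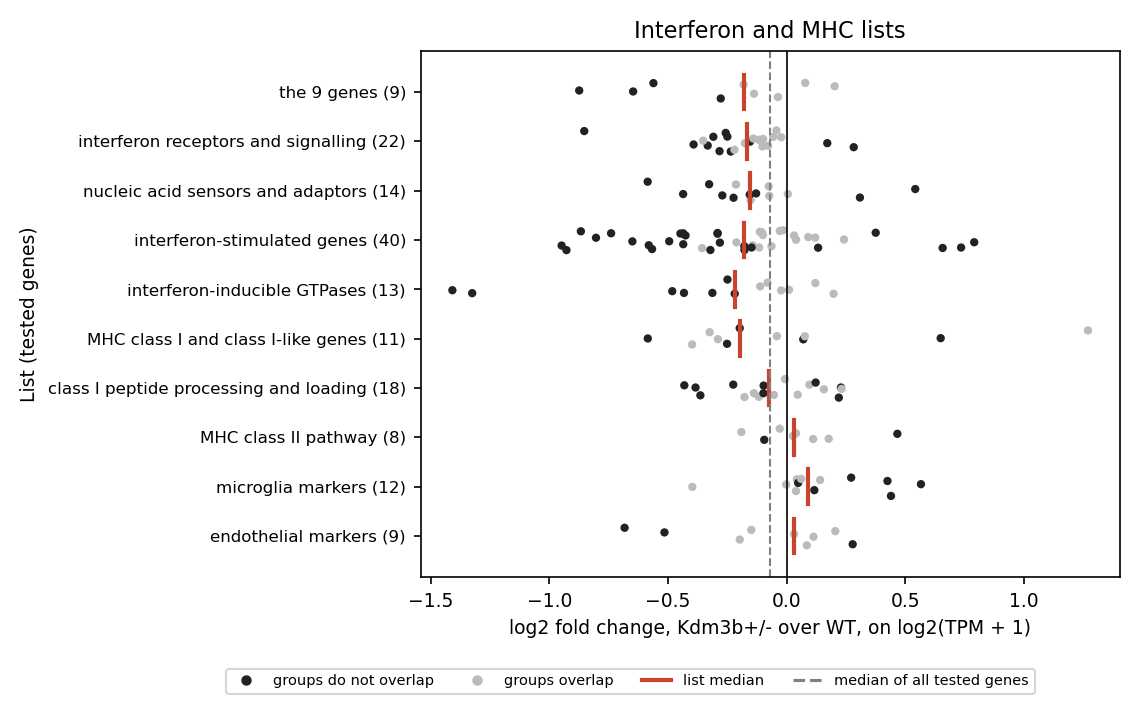
Log2 fold change, Kdm3b+/- over WT, of each tested gene of the 9 genes, of 7 wider interferon and MHC lists and of the microglia and endothelial markers, with black points where the groups do not overlap, grey points where they do, a red bar at the list median and a dashed line at the median of all tested genes. The median is lowest for the GTPases at -0.22, is -0.18 for the 9 genes and the interferon-stimulated genes, and lies at 0.03 for MHC class II and the endothelial markers and at 0.09 for the microglia markers.

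Marker genes of other cell types were counted beside the shares of all tested genes, of which 19.2% lay entirely above and 32.0% entirely below WT. Of 12 microglia markers all were tested, 6 lay entirely above and 0 entirely below WT, and their summed TPM was 380 and 384 in WT mice, against 404 and 425 in *Kdm3b*+/- mice. Summed endothelial markers overlapped, at 367 and 331 TPM against 338 and 353 TPM, and much of that sum is *Ly6c1*, which is also an interferon-stimulated gene. Of 9 tested endothelial markers 1 lay entirely above and 2 entirely below WT. The 2 were *Slco1a4*, at 31.1 and 35.6 against 18.8 and 22 TPM (log2 fold change -0.68, adjusted p = 0.117), and *Pecam1*, at 6.20 and 7.89 against 3.53 and 5.92 TPM (log2 fold change -0.51, adjusted p = 0.296). Blood markers did differ: *S100a8* and *S100a9*, which mark neutrophils, fell, from 4.68 and 5.25 TPM to 0.973 and 0.757 TPM for *S100a8* (adjusted p = 0.0116 by limma) and from 7.82 and 6.64 TPM to 1.82 and 0.945 TPM for *S100a9* (adjusted p = 0.0133 by limma). Over all 12 blood markers the summed TPM overlapped, from 1156 to 1778 in WT mice, against 1357 to 1933 in the *Kdm3b*+/- mice, and that sum is mostly haemoglobin. Of the haemoglobin genes *Hbb-bs*, which mouse strains carry in different forms, was 506 and 8.08 TPM in WT mice, against 0.0077 and 0.142 TPM in *Kdm3b*+/- mice. The other 3 haemoglobin genes lay above WT. Why *Hbb-bs* differed, also between the 2 WT mice, was not tested. Markers of meninges and choroid plexus summed to 53.7 and 44.5 TPM in WT mice, against 36.4 and 38.1 TPM in *Kdm3b*+/- mice. Their median was -0.48 on the log2 scale over 5 tested of 10, among which *Lum* lay above WT. Summed astrocyte markers were 4055 and 3365 TPM against 3015 and 2781 TPM, with 6 of 10 entirely below WT and 2 entirely above, and *Aqp4* called higher. Most of that sum is 1 gene, *Aldoc*, at 3146 and 2468 TPM in WT mice, against 2134 and 1824 TPM in *Kdm3b*+/- mice. Of the Purkinje cell markers, 4 of 10 lay entirely below and 0 above, but their sums overlapped, at 1631 and 723 TPM against 879 and 746 TPM, and WT mouse 2 was the lowest. Of 10 oligodendrocyte markers, 2 lay entirely below and 1, *Opalin*, entirely above WT. *Mobp* was called lower, at 925 and 893 TPM in WT mice, against 471 and 482 TPM in *Kdm3b*+/- mice (adjusted p = 0.0133 by limma). *S100a8*, *S100a9*, the summed meningeal markers, mostly *Dcn*, and the astrocyte sum, mostly *Aldoc*, were lower in both *Kdm3b*+/- mice. In the same lists *Lum*, *Aqp4*, *Hopx* and the other 3 haemoglobin genes lay above WT. Of all tested genes, 32.0% were lower in both *Kdm3b*+/- mice, as *Irf7*, *Irf9* and *Ifit3* were. The part of cell types in the values of these 3 genes was not tested. Without WT mouse 1, which was high in Purkinje cell markers, the log2 fold change was -0.86 for *Irf7*, -0.62 for *Irf9*, -0.39 for *Ifit3* and -0.19 for *H2-D1*.

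Across other processing and fits with 1 mouse left out, *Irf7*, *Irf9*, *Ifit3*, *H2-D1* and *Isg15* kept a negative log2 fold change in each one run. The other 4 changed sign in at least 1. The range was -0.62 to -0.39 for *Irf9*, -1.19 to -0.56 for *Irf7* and -0.90 to -0.39 for *Ifit3*. *H2-D1* ranged from -0.37 to -0.19 and *Isg15* from -0.47 to -0.04. Both ends came from fits with 1 mouse left out for *Irf7*, *Ifit3* and *H2-D1*. Under other processing alone their ranges were -1.01 to -0.67, -0.76 to -0.53 and -0.32 to -0.20, in that order.

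**Figure D5:**
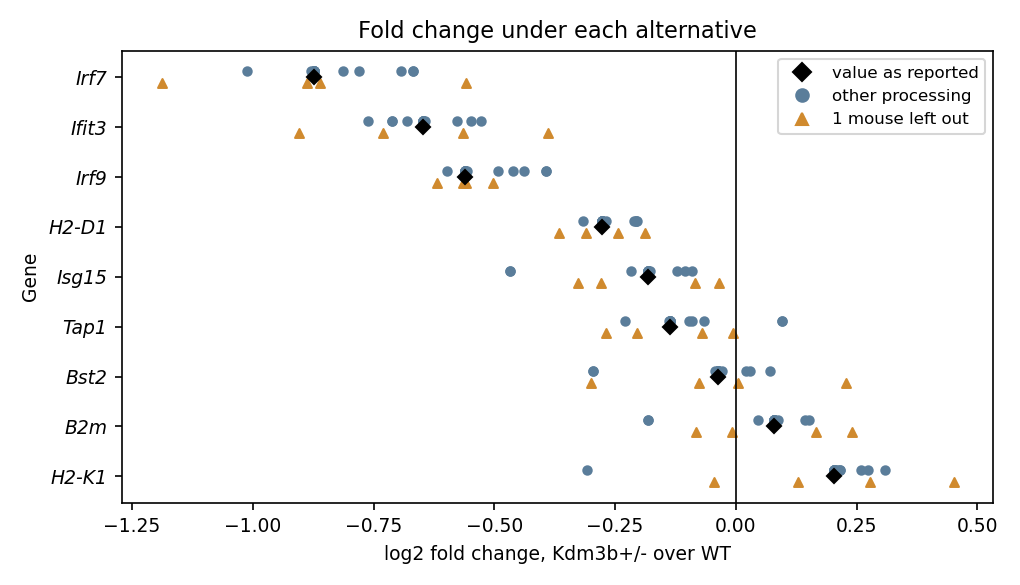
Log2 fold change, Kdm3b+/- over WT, of each of the 9 genes as reported (black diamonds), under other processing (blue circles) and with 1 mouse left out (orange triangles); the lowest blue point of H2-K1 is its sum with H2-K2. All points of Irf7, Ifit3, Irf9, H2-D1 and Isg15 lie below 0, and those of Tap1, Bst2, B2m and H2-K1 fall on both sides.

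For each of the 9 genes, the tested gene outside all lists whose centred log2 values were nearest over the 4 mice was found, as a description over 4 values. The nearest to *Irf7* was *Prss41* at a Euclidean distance of 0.0943, the least close of the 9 pairs. *Irf9* was nearest to *Dnajc16* at 0.0182, *Ifit3* to *Aass* at 0.0379 and *Isg15* to *Slco3a1* at 0.00962, the closest pair. The class I genes were nearest to *Rsph9* (*H2-D1*, 0.0135), *Gm20605* (*B2m*, 0.0345), *Tmem44* (*H2-K1*, 0.0407) and *Rpap3* (*Tap1*, 0.0201), and *Bst2* to *Myo1d* (0.0163).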

How the data were processed

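Bulk RNA-seq libraries of 2 WT and 2 *Kdm3b*+/- mice were grouped by the genotype in the labels. After quality trimming, STAR was used by the authors for alignment and StringTie for gene abundance, and the versions, the genome build and the annotation are not given in the sources used here. They deposited 1 table per library with TPM, which the authors scaled to gene length and to the same total in every library, with FPKM, which the authors scaled to gene length and mapped fragments, and with coverage, the unscaled mean read depth per gene as deposited. Aligned bases were computed from the ratio of deposited coverage to FPKM, which 70.9% to 71.4% of the entries with an FPKM above 1 shared. Read counts were not recovered, so a count test was not used. Symbols were found for 24462 of 24532 identifiers, 99.6% of which lay on the chromosome given by RefSeq for GRCm38 and 90.5% within 1 kb of its start. Coordinates are those of the tables, and positions of sequences are those of RefSeq. TPM of entries with the same identifier was summed.

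Log2(TPM + 1) of the 13652 genes whose mean TPM reached 1 was fitted with limma 3.58.1 (lmFit, eBayes with trend) in R 4.3.3, with genotype as the only term and Benjamini-Hochberg adjustment over all tested genes. The study's methods used a count test, which these units do not allow. Robust fits used statmod 1.5.0, and tables and figures were made with Python 3.11.15, NumPy 2.4.6, pandas 2.3.3 and Matplotlib 3.10.9. The scripts were tested on simulated data. The 9 genes and all lists were chosen with earlier results of these data known. From each interferon or MHC list the text names called genes, the 2 highest and the 2 lowest log2 fold changes among genes whose groups did not overlap, the 2 with the highest mean TPM, and preset relatives and partners of the 9 genes. Single marker genes were named after their values were seen. Within the receptor and signalling list, 1 gene enters the counts but is not reported here. Shared sequence was checked with 50-base windows of GENCODE transcripts of GRCm38.

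The alternatives were FPKM for TPM, quantile normalization, median-ratio scaling, leaving out the 20 highest genes, a pseudocount of 0.1, keeping all genes, a minimum mean TPM of 5, the highest entry per identifier, sums with related genes (*Ifit3* with *Ifit3b*, *H2-K1* with *H2-K2*), robust eBayes, eBayes without trend, a block for the replicate number, a loess correction for transcript length and GC content (found for 94.5% of tested genes) with and without that block, and each mouse left out in turn.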

Additional observations from a re-analysis of the deposited data

How the results depend on the processing

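The alternatives moved the weak differences across 0 and the counts across small numbers, and *Tap1* had the lowest coverage of the 9 genes, under 5. *B2m* reversed to -0.18 after the loess correction, with or without the block, and *Tap1* to 0.10 likewise. The sum of *H2-K1* with *H2-K2* was -0.31, which is mostly the value of *H2-K2* and no second measure of *H2-K1*. *Bst2* reversed to 0.022 with FPKM, 0.030 with median-ratio scaling and 0.071 with quantile normalization, but was -0.295 after the loess correction. The cause was not tested. With 1 mouse left out, the fit has 1 residual degree of freedom and assumes that the lone mouse varies like the others. The log2 fold changes then ranged from -0.082 to 0.24 (*B2m*, -0.082 without *Kdm3b*+/- mouse 2 and -0.0085 without WT mouse 2), -0.045 to 0.45 (*H2-K1*, -0.045 without *Kdm3b*+/- mouse 2), -0.30 to 0.23 (*Bst2*, 0.23 without *Kdm3b*+/- mouse 1 and 0.0043 without WT mouse 1) and -1.19 to -0.56 (*Irf7*, adjusted p from 0.0117 to 0.628). Calls ranged from 21 to 188 over all genes, from 0 to 1 for the 9 genes, the receptors, the interferon-stimulated genes and the class I genes, and from 0 to 2 for the GTPases.

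The 63 calls over all genes became 38 with FPKM, 37 without trend and 1 with no filter. Interferon-stimulated genes went from 0 calls among 40 tested to 2 (*Ifit1*, *Lgals3bp*) with robust eBayes. The same 2 were called among 25 tested with a mean TPM of at least 5. After the loess correction 1 was called, with or without the block. The GTPases went from 2 calls to 1 with a mean TPM of at least 5, which leaves *Gbp10* untested, and to 0 with no filter. Median-ratio scaling, quantile normalization and FPKM took the median of all genes from -0.07 to -0.0045, 0.0057 and -0.010. In that order, the median of the 9 genes went from -0.18 to -0.12, -0.091 and -0.10.

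Same-numbered mice are different animals, and the correlation of their deviations was 0.121. With the replicate number as a block, calls rose to 600 over all genes (4.39%), 427 of them lower (3.13%), and *Irf7* was called (-0.87, adjusted p = 0.0327), 1 of the 9 genes. Over all genes 173 (1.27%) were called higher under the block. Calls under it were 1 of 22 receptor and signalling genes (*Usp18*, lower) and 1 of 14 sensors (*Rnaseh2c*, higher). Of 40 interferon-stimulated genes 7 were called, 5 lower and 2 higher (*Ifi30*, *Ifitm1*). Of 11 class I genes 1 was called (*H2-K2*, lower). No other of the 9 genes changed its call. The sum of *H2-D1* with *H2-L* was not run.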
